A study of Rattus norvegicus with 9 samples.

Results

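Mineral deposition by osteoblasts depends on genes that make or remove phosphate and pyrophosphate and on proteins that bind the growing mineral, and 10 such genes were followed here: Alpl, Phospho1, Enpp1, Ankh, Nt5e, Entpd3, Phex, Mgp, Spp1 and Bglap. They were chosen by gene symbol for their known function, but with earlier results of these data known. All 10 were found, once each, among the 19085 genes listed. Primary osteoblasts from the calvaria of male Sprague-Dawley rats, 1 day old, were used at first passage and induced for 7 days, and polyadenylated RNA was sequenced in 9 libraries. The 3 Control libraries came from cells in induction medium alone, the 3 Thrombin libraries from cells given 20 U/mL of thrombin in that medium, and the 3 PD03 libraries from cells given 20 U/mL of thrombin with 0.1 μM PD0325901 (PD03), which inhibits the kinase MEK. All 3 groups had 10 mM β-glycerophosphate, ascorbic acid and dexamethasone in the medium, so that an organic phosphate source was present throughout. No library of PD03 without thrombin was analysed here. The treatment label of the PD03 libraries names PD0325901 alone, and the thrombin is given by the design text and the paper. A protocol in the sample labels gives the PD03 concentration as 0.1 mM, and the tissue is labelled knee, although the growth protocol of the same labels describes calvarial cells. The labels do not tie libraries to separate animals or cultures, so that the p-values measure the spread between these libraries, which may be technical.

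Bone mineral is a calcium phosphate, and extracellular pyrophosphate blocks its growth. Tissue-nonspecific alkaline phosphatase (Alpl) splits pyrophosphate into phosphate, Enpp1 makes pyrophosphate from extracellular ATP, and the membrane protein Ankh raises extracellular pyrophosphate. Phospho1 frees phosphate inside matrix vesicles, the particles in which the earliest crystals form. Entpd3 and Nt5e degrade extracellular nucleotides, Entpd3 from ATP and ADP to AMP and Nt5e from AMP to adenosine and phosphate. Spp1 (osteopontin) and Mgp (matrix Gla protein) bind mineral and restrain its growth, Bglap (osteocalcin) is a mineral-binding protein of mature osteoblasts, and Phex is a peptidase of osteoblasts and osteocytes whose loss causes phosphate wasting.

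Total counts per library were 15447832 to 19841468, of which Col1a1 took 6.78% to 6.96% with PD03 and 4.18% to 5.05% without. Of the 8 osteoblast markers, Runx2 had 509 to 906 counts and Sp7 had 59 to 122 counts per library, and Col1a1 had at least 705156. Ibsp and Bglap, which mark later stages, had at most 1 and 5 counts in any library, and the transcription factor Dlx5 had at most 9. The summed level of the 8 osteoblast markers, nearly all Col1a1 and Col1a2, was 60616 to 66405 CPM (counts made comparable across libraries with TMM factors) in Control, 55606 to 58834 in Thrombin and 95005 to 98139 in PD03 libraries. The 7 myeloid and osteoclast markers summed to 133 to 143, 99.9 to 108 and 171 to 180 CPM in the same order, mostly from Ctsk. Acp5 had 113 to 207 counts per library, Csf1r 5 to 26 and Cd68 6 to 14, while Ptprc had at most 6 counts, Tyrobp at most 4 and Ocstamp at most 1. The 4 adipocyte markers summed to 201 to 212, 97.7 to 103 and 154 to 165 CPM, mostly from Lpl, with Adipoq at 1 count or 0. The 5 chondrocyte markers summed to 91.4 to 102, 67.3 to 73.6 and 83.0 to 89.5 CPM, mostly from Col2a1. In the edgeR fit described below, Col2a1 fell with thrombin (log2 fold change -0.78, adjusted p = 1.31e-14). Acan (1.29), Matn3 (1.27) and Sox9 (0.89) rose with thrombin (adjusted p = 0.00893, 0.00126 and 8.39e-09), and Comp was at -0.50 (adjusted p = 0.0508). In PD03 against thrombin Comp rose (2.16, adjusted p = 1.72e-14), and the others were between -0.45 and 0.19. The 4 endothelial markers summed to 6.69 to 7.76, 6.30 to 8.50 and 11.1 to 12.6 CPM, mostly from Tek (100 to 172 counts), with at most 8 counts of Pecam1. The 4 muscle markers summed to 5.87 to 8.59, 7.07 to 8.74 and 8.54 to 9.21 CPM, mostly from Des (91 to 158 counts), with at most 3 counts of Myog. In that edgeR fit Tek (0.62, adjusted p = 0.000191) and Kdr (1.42, adjusted p = 0.00139, 4 to 33 counts) rose with PD03 against thrombin, and Des was at 0.11. With thrombin against control Tek, Kdr and Des were not called. Acta1 had 2 to 6 counts in the Control libraries, 9 in each Thrombin library and 15 to 25 in the PD03 libraries. Among the 8 osteoblast markers, Runx2 and Sp7 ran against the sum in direction. The log2 fold change of Runx2 was 0.26 with thrombin and -0.67 with PD03 against thrombin (adjusted p = 0.00216 and 2.53e-11, edgeR). Sp7 was at 0.53 and -0.31 (adjusted p = 0.018 and 0.127). Col1a1 (-0.15 and 0.75), Col1a2 (-0.22 and 0.75) and Alpl (-2.24 and 3.14) went with the sum. The part of shifts in the marker levels in the differences below was not tested. In bulk RNA, fewer cells of a type and less RNA per cell cannot be told apart.

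**Figure D1:**
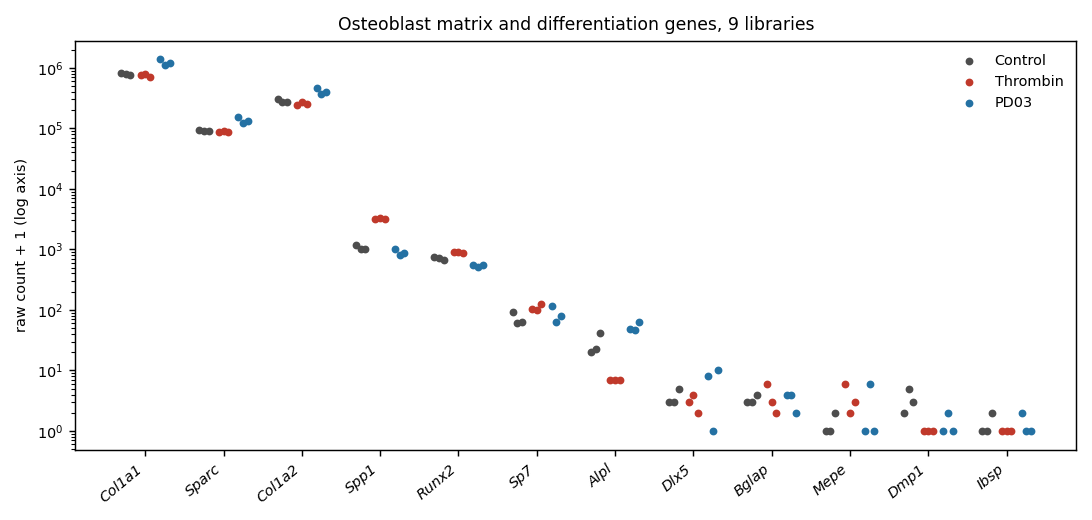
Raw count plus 1 on a log axis for 12 bone matrix and differentiation genes, 1 point a library, coloured by group. Col1a1, Col1a2 and Sparc lie highest, Sparc at 85743 counts or more, Runx2 and Sp7 between 59 and 906 counts, and Bglap, Ibsp, Dmp1, Mepe and Dlx5 at 9 counts or fewer in every library.

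The promoter windows of 3 of the 10 genes are shown as examples of 3 of the outcomes seen below: Alpl was called in every comparison, Phospho1 in none, and Bglap was too low to judge. Genes called in only some comparisons, such as Enpp1, Spp1 and Mgp, are not among these 3. The RefSeq table used (build GRCr8) held windows of 250 bases before to 50 bases after the annotated start for 7 of the 10 genes, and Enpp1, Mgp and Phex were not matched. Both strands were searched for 4 motifs, AP-1 (TGANTCA), Runx (TGTGGT), Ets (CCGGAA) and a TATA box (TATAAA), and matches are in capitals. These motifs occurred in 7.33%, 17.3%, 15% and 14.2% of all 33469 windows of that length.
Alpl, chr5:155289736-155290035, minus strand: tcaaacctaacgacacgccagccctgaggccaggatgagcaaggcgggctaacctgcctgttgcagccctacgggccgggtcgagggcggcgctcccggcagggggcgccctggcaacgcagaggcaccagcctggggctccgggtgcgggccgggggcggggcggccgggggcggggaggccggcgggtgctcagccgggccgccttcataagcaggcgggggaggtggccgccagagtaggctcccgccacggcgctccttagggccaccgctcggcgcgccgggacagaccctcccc
Phospho1, chr10:81258560-81258859, plus strand: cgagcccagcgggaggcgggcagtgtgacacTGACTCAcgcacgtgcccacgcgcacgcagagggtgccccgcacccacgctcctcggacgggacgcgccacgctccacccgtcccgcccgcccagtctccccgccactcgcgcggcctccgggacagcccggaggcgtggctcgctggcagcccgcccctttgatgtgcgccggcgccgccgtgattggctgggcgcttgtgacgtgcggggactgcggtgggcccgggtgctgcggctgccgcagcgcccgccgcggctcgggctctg
Bglap, chr2:176137269-176137568, minus strand: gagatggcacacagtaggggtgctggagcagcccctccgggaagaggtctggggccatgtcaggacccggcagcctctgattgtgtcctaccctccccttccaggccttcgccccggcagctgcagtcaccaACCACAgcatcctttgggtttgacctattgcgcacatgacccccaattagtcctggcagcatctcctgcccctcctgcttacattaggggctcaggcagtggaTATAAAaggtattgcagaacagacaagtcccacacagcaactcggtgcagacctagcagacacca
The Alpl window held none of the 4 motifs and had a GC content of 76.3%. The Phospho1 window, with a GC content of 77.3%, held 1 AP-1 match whose first base lies at -219 from the start. The Bglap window had a lower GC content of 58.3% and held a Runx match on the reverse strand at -118 and a TATA match at -15, which do not overlap. Among the other matched genes, Ankh had an Ets match at -28, Spp1 had a TATA match at -204, and the Nt5e and Entpd3 windows held none of the 4 motifs. The annotated start is the outer end of the gene for Alpl, Phospho1, Bglap and Nt5e, but not for Ankh, Entpd3 and Spp1. A match is a run of letters and not evidence of binding.

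To find which of the genes differed, all 13256 genes with enough counts were fitted together with edgeR, and a gene was called a DEG at an adjusted p-value under 0.05 with an absolute log2 fold change above 0.58. Of the 10 genes, 9 were tested and Bglap fell below the count filter. Entpd3 and Phex passed that filter only through the PD03 libraries, where their means were highest, and are left out of the counts here, and Alpl passed through its Control and PD03 libraries. With thrombin against control, 2 of the other 7 rose (Enpp1 and Spp1) and 1 fell (Alpl), where 8.06% of all tested genes were called, 2.62% higher and 5.44% lower. With PD03 against thrombin, 1 of the 7 rose (Alpl) and 3 fell (Enpp1, Mgp and Spp1), where 15.9% of all tested genes were called, 9.61% higher and 6.31% lower. With PD03 against control, 1 of the 7 rose (Alpl) and 1 fell (Mgp), where 8.97% were called, 4.9% higher and 4.07% lower. When libraries were scaled by their totals instead, the genes called in PD03 against thrombin made up 7.71% higher and 8.87% lower of all tested, and those in PD03 against control 3.55% higher and 6.84% lower. Over all genes this scaling put the median at -0.0878 (PD03 against thrombin) and -0.12 (PD03 against control) on the log2 scale, and it left the calls of the 7 genes as they were. The median log2 fold change of the 7 genes was -0.03, 0.00 and -0.22 in the 3 comparisons, against -0.00602, 0.0109 and -0.00395 over all genes. The comparisons share libraries, so their calls are not independent of each other.

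**Figure D2:**
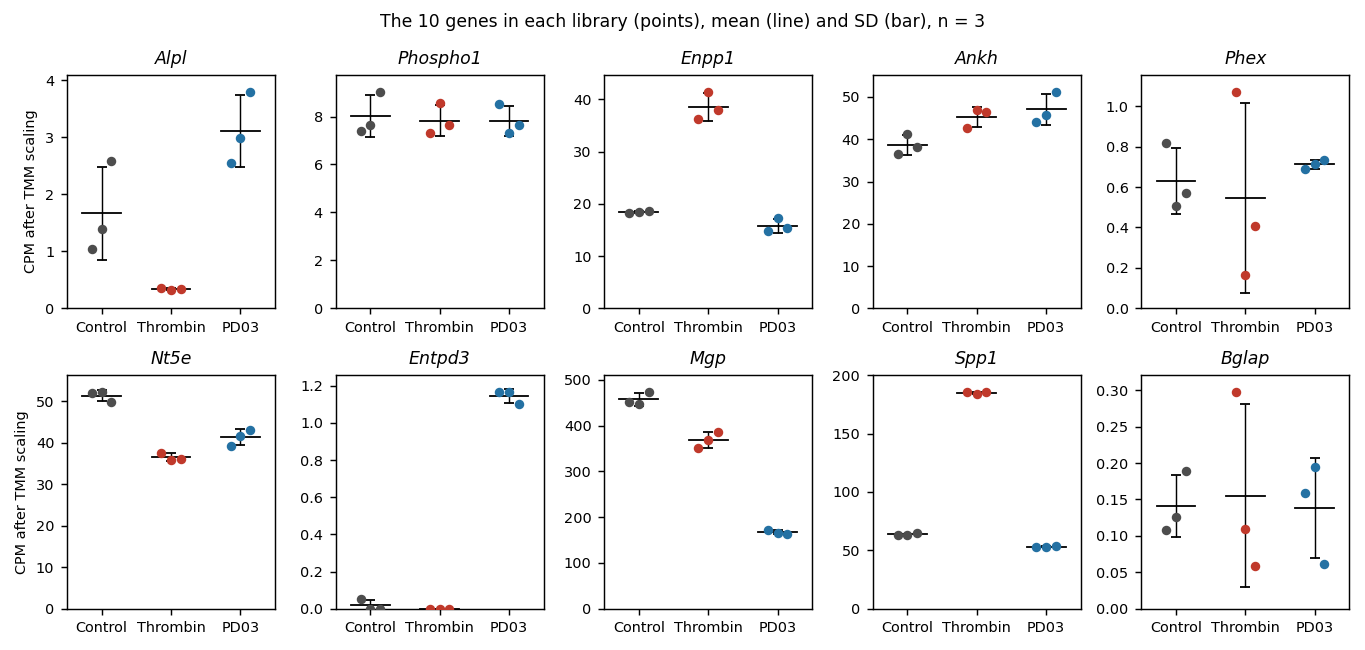
CPM after TMM scaling of the 10 genes in each library (points), with the group mean (line) and SD (bar), n = 3 a group, each vertical axis starting at 0. Enpp1 and Spp1 are highest in the 3 Thrombin libraries, Alpl is lowest there, Entpd3 is seen in the PD03 libraries, Mgp is lowest with PD03, and Phospho1, Phex and Bglap overlap between all groups.

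Alpl (ENSRNOG00000013954), which removes pyrophosphate, was lowest with thrombin and highest with PD03. It had 19, 22 and 41 counts in the Control libraries, 6, 6 and 6 in the Thrombin libraries and 48, 46 and 62 in the PD03 libraries. All Thrombin libraries lay below every other library, and the spread was widest among the Control libraries, of which replicate 3 came close to the PD03 libraries. Control libraries averaged 1.67 ± 0.815 CPM (SD, n = 3), Thrombin libraries 0.345 ± 0.0145 CPM and PD03 libraries 3.10 ± 0.635 CPM. On this scale Control replicate 3, at 2.59 CPM, was slightly above PD03 replicate 1, at 2.54 CPM. The Thrombin SD is small because every Thrombin library had 6 counts, and it does not show the counting error at that level. Alpl fell 4.71-fold with thrombin against control (-2.24 ± 0.416 standard error on the log2 scale, 95% interval -3.08 to -1.39, adjusted p = 3.97e-05). It rose 8.81-fold with PD03 against thrombin (3.14 ± 0.378, interval 2.37 to 3.90, adjusted p = 2.81e-09). The rise of 1.87-fold in PD03 against control was the least firm of its 3 differences, at 0.90 ± 0.289 on the log2 scale (interval 0.32 to 1.49, adjusted p = 0.0108). It was not called without Control replicate 1 (0.64, adjusted p = 0.0989), without Control replicate 2 (0.79, adjusted p = 0.0543) or without PD03 replicate 3 (0.73, adjusted p = 0.086), and its adjusted p over all alternatives ran from 0.00109 to 0.0989. Summed over a group, Alpl had 82 counts in Control, 18 in Thrombin and 156 in PD03 libraries, so that counting error alone left the ratio of Thrombin to Control between 0.119 and 0.354.

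Enpp1 (ENSRNOG00000013994), which makes pyrophosphate, ran opposite to Alpl in the Thrombin libraries. Its counts were 335, 293 and 294 in the Control libraries, 610, 756 and 652 in the Thrombin libraries and 280, 268 and 251 in the PD03 libraries. Every Thrombin library was above every other library, and the PD03 libraries were the lowest. The mean level was 18.4 ± 0.185 CPM (SD, n = 3) for Control, 38.6 ± 2.63 CPM for Thrombin and 15.8 ± 1.33 CPM for PD03. Enpp1 rose 2.10-fold with thrombin (1.07 ± 0.0799 standard error on the log2 scale, adjusted p = 1.33e-14) and fell 2.44-fold with PD03 against thrombin (-1.29 ± 0.0815, adjusted p = 2.86e-17). Its value in PD03 against control was -0.22 (interval -0.40 to -0.04, adjusted p = 0.0439), which is within the fold threshold and was not called.

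A ratio of the 2 genes within a library does not depend on how libraries are scaled. The Control libraries had 5.67, 7.51 and 13.9 counts of Alpl per 100 counts of Enpp1, the Thrombin libraries had 0.984, 0.794 and 0.920, and the PD03 libraries had 17.1, 17.2 and 24.7. The 3 groups did not overlap. The log2 ratio was -3.57 ± 0.664 (SD, n = 3) for Control, -6.80 ± 0.158 for Thrombin and -2.37 ± 0.304 for PD03. The ratio was thus 9.39-fold lower in Thrombin than in Control libraries, 21.6-fold higher in PD03 than in Thrombin libraries, and 2.30-fold higher in PD03 than in Control libraries. Each Thrombin ratio rested on 6 counts of Alpl, so the Thrombin SD and the ranges below do not show the counting error. For Alpl alone, the pooled PD03 to Thrombin ratio of 8.93 had a counting interval of 5.47 to 15.5. In an exact two-sided permutation test each of these differences had p = 0.1, the smallest value that 3 against 3 libraries allow, so the test could not fall below 0.05 here. Leaving out each library in turn moved the log2 difference between -3.51 and -2.87 for thrombin against control, between 4.26 and 4.52 for PD03 against thrombin and between 0.92 and 1.57 for PD03 against control.

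**Figure D3:**
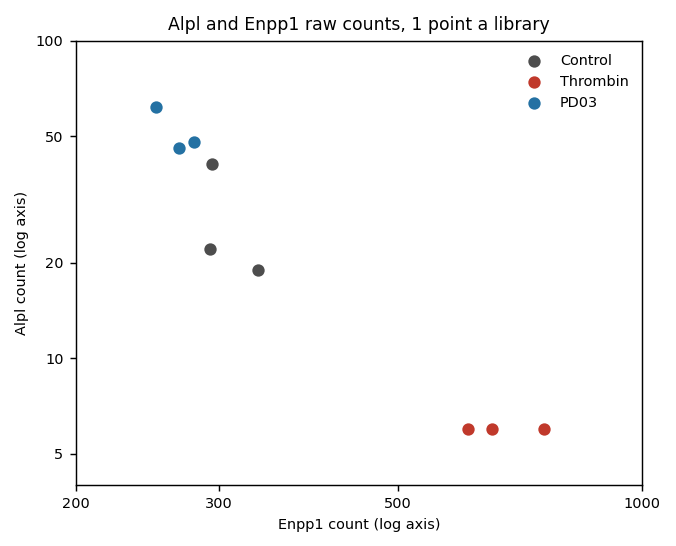
Raw counts of Alpl (vertical) against Enpp1 (horizontal) on log axes, 1 point a library, coloured by group. The 3 Thrombin libraries sit apart at 6 counts of Alpl and 610 to 756 counts of Enpp1, and the PD03 libraries have the most Alpl, 46 to 62 counts, with 251 to 280 counts of Enpp1.

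Ankh (ENSRNOG00000010960) and Phospho1 (ENSRNOG00000005569) were called in no comparison. Ankh had 673, 655 and 603 counts in the Control libraries, 717, 856 and 798 in the Thrombin libraries and 834, 708 and 837 in the PD03 libraries. In CPM every Thrombin library (42.6 to 46.9) and every PD03 library (44.2 to 51.2) was above every Control library (36.6 to 41.3). The log2 fold change of Ankh was 0.23 with thrombin (interval 0.10 to 0.37, adjusted p = 0.0066) and 0.28 in PD03 against control (interval 0.15 to 0.42, adjusted p = 0.000589), both within the fold threshold. Ankh overlaps an uncharacterised gene (LOC120100754) in the RefSeq table, and the strand setting of the counting is not stated, so reads of the overlap cannot be assigned to either gene. Between PD03 and thrombin it was 0.05 (interval -0.08 to 0.18, adjusted p = 0.539), and scaling by library totals gave -0.05, so that this comparison gave Ankh no direction. Phospho1 had 136, 121 and 143 counts in the Control libraries, 123, 156 and 131 in the Thrombin libraries and 161, 113 and 125 in the PD03 libraries. Its groups overlapped throughout, at 8.02 ± 0.882, 7.83 ± 0.643 and 7.83 ± 0.625 CPM (SD, n = 3). The interval of its log2 fold change ran from -0.30 to 0.24 for thrombin against control and from -0.27 to 0.27 for PD03 against thrombin, which bounds a change in either direction to less than the fold threshold.

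Of the nucleotide-degrading enzymes, Nt5e (ENSRNOG00000011071) was expressed in all groups and Entpd3 (ENSRNOG00000018982) almost only in the PD03 libraries. Nt5e had 958, 827 and 788 counts in the Control libraries, 632, 655 and 620 in the Thrombin libraries and 742, 644 and 703 in the PD03 libraries. In CPM the groups did not overlap, with means of 51.3 ± 1.38 (SD, n = 3) for Control, 36.5 ± 0.908 for Thrombin and 41.3 ± 1.89 for PD03. The log2 fold change of Nt5e was -0.49 with thrombin (adjusted p = 1.68e-08), 0.18 in PD03 against thrombin (adjusted p = 0.0176) and -0.31 in PD03 against control (adjusted p = 4.38e-05), and all 3 were within the fold threshold. Nt5e overlaps Snx14 in the RefSeq table, and the sources used here do not give the strand setting of the counting, so that reads of the overlap cannot be assigned to either gene. Entpd3 had 22, 18 and 18 counts in the PD03 libraries, 1 count in Control replicate 1, and none in the other Control libraries or in any Thrombin library. A count of 0 over the Thrombin group allows up to 3 counts, or 0.0574 CPM, and the 58 PD03 counts of Entpd3 stood 19.9-fold above that floor. A counting interval of the pooled PD03 to Thrombin ratio, which leaves out the spread between libraries, started at 15.7-fold. Against the single Control count the PD03 counts gave a ratio of 57.3 with a counting interval of 9.89 to 2302. Since Entpd3 entered the fit only through the group where it is high, no test of these differences is given. Whether thrombin altered Entpd3 could not be judged, since both groups were below the floor.

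The mineral-binding proteins differed in abundance and in pattern. Spp1 (ENSRNOG00000043451) had 1161, 1003 and 1022 counts in the Control libraries, 3120, 3349 and 3183 in the Thrombin libraries and 998, 817 and 876 in the PD03 libraries. In CPM the replicates lay within a narrow range of each other, and the lowest Thrombin library, at 184 CPM, was far above the highest Control library, at 64.5 CPM. Spp1 rose 2.90-fold with thrombin (interval of the log2 fold change 1.45 to 1.63, adjusted p = 3.52e-28) and fell 3.48-fold with PD03 against thrombin (interval -1.89 to -1.71, adjusted p = 7.29e-31). The PD03 libraries, at 52.8 to 53.6 CPM, were also below the Control libraries, at 63.1 to 64.5 CPM, and this difference of -0.26 on the log2 scale (adjusted p = 3.66e-05) was within the fold threshold.

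Mgp (ENSRNOG00000005695), the most abundant of the 10 genes, was lowest with PD03. Its counts were 8308, 7076 and 7490 in the Control libraries, 5908, 6733 and 6630 in the Thrombin libraries and 3239, 2555 and 2679 in the PD03 libraries. Means were 457 ± 13.9 CPM (SD, n = 3) for Control, 369 ± 17.5 CPM for Thrombin and 167 ± 4.02 CPM for PD03, with no overlap between groups. Mgp fell 2.21-fold with PD03 against thrombin (-1.14 ± 0.0395 standard error on the log2 scale, adjusted p = 2.33e-26) and 2.74-fold with PD03 against control (-1.45 ± 0.0394, adjusted p = 2.57e-29). Its value with thrombin against control was -0.31 (interval -0.39 to -0.23, adjusted p = 8.72e-09), in the same direction and within the fold threshold. Mgp and Spp1, which both restrain mineral growth, therefore stood apart with thrombin, where Spp1 rose and Mgp was not called, while both fell with PD03 against thrombin.

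Bglap (ENSRNOG00000019607) had 2, 2 and 3 counts in the Control libraries, 5, 2 and 1 in the Thrombin libraries and 3, 3 and 1 in the PD03 libraries. The ratio of the pooled counts was 1.10 for thrombin against control with a counting interval of 0.347 to 3.55, and 0.902 for PD03 against thrombin with an interval of 0.278 to 2.85. A 2-fold difference in either direction was therefore not detectable at this depth. Phex (ENSRNOG00000023440) had 15, 8 and 9 counts in the Control libraries, 18, 3 and 7 in the Thrombin libraries and 13, 11 and 12 in the PD03 libraries. The Thrombin libraries held both the highest and the lowest count of Phex, and its log2 fold change was -0.24 with thrombin. Without Control replicate 1 or without Thrombin replicate 2 that value changed sign, to 0.01 and 0.21. No test is given, since Phex entered the fit only through its PD03 libraries. The ratio of its pooled counts was 0.839 for thrombin against control, with a counting interval of 0.487 to 1.44. In the PD03 comparisons the counting intervals were 0.786 to 2.25 against thrombin and 0.671 to 1.85 against control. These intervals leave out the spread between libraries. Phex also overlaps 3 uncharacterised genes in the RefSeq table, and without a stated strand setting shared reads cannot be assigned.

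Bglap and Phex were thus too low to judge in any comparison, and Entpd3 was too low to judge between the Thrombin and Control groups. Alpl could be tested in all comparisons, but its level in the Thrombin group rested on 6 counts a library. The other genes, Phospho1, Enpp1, Ankh, Nt5e, Mgp and Spp1, had at least 113 counts in every library.

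**Figure D4:**
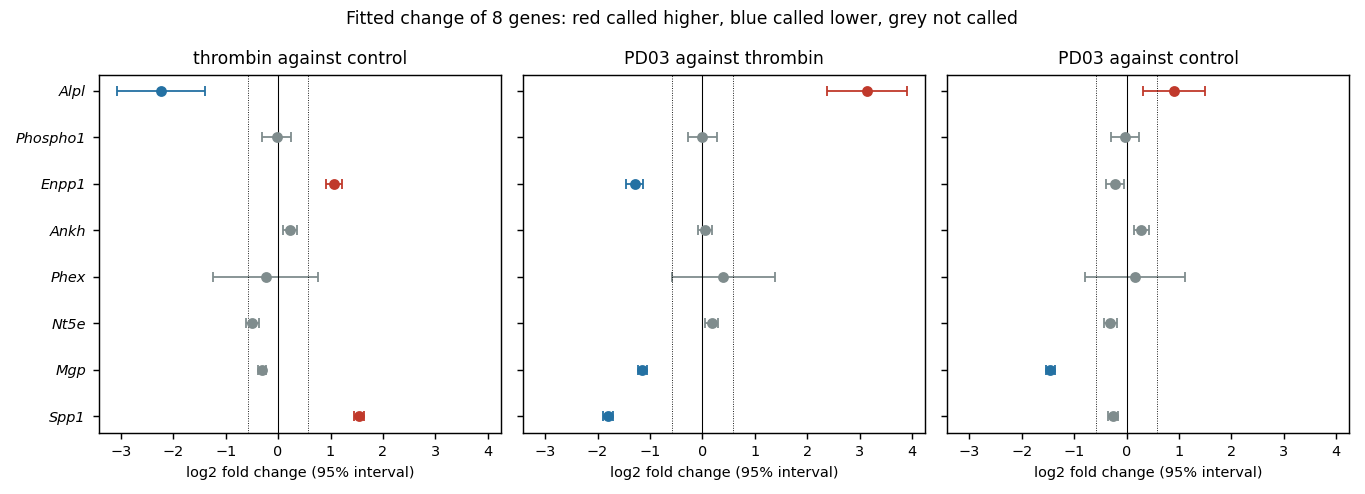
Fitted log2 fold change with its 95% interval for 8 of the 10 genes in the 3 comparisons, with the fold threshold of 0.58 as dotted lines. Red points were called higher and blue points lower, grey points were not called, Entpd3 is left out because 1 or both groups had counts at or near 0, and Bglap was not tested. Phex passed the count filter only through PD03, so its points and intervals are not to be read as tests.

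Levels were compared between genes per length, with the deposited FPKM (fragments scaled to gene length and library size), as group means. In the Control group the order was Mgp (473 FPKM), Spp1 (41.9), Nt5e (16.4), Ankh (9.84), Enpp1 (4.82), Phospho1 (2.34), Alpl (0.708), Bglap (0.290), Phex (0.153) and Entpd3 (0.00606), and no neighbours overlapped between libraries down to Entpd3. In the Thrombin group Mgp (377 FPKM) and Spp1 (120 FPKM) stood closer together. Nt5e (11.3 to 11.8 FPKM) and Ankh (10.7 to 11.8 FPKM) overlapped there, with Enpp1 (9.40 to 10.7 FPKM) next below. Alpl (0.138 to 0.150 FPKM) lay within the range of Bglap (0.118 to 0.604 FPKM) and of Phex (0.0393 to 0.256 FPKM) in the Thrombin libraries, and not in the others. In the PD03 group the order of the upper genes was Mgp (159 FPKM), Spp1 (32.3), then Nt5e (11.5 to 12.6 FPKM) and Ankh (10.4 to 12.0 FPKM), which overlapped, then Enpp1 (3.83), Phospho1 (2.11) and Alpl (1.22). Entpd3 (0.335 to 0.356 FPKM) lay within the range of Bglap (0.116 to 0.369 FPKM) in the PD03 libraries.

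To place the 10 genes among others of the same processes, 45 further symbols were listed, of which 40 are in the deposited table and 32 were tested. Panx3 and Smpd3 passed the filter only through their PD03 libraries, where they are high, and are left out of the counts, which leaves 30 symbols on 31 rows since Ppa1 stands on 2. With thrombin against control 3 rose and 7 fell, beside 2.62% and 5.44% of all tested genes. With PD03 against thrombin 8 rose and 3 fell, beside 9.61% and 6.31%, and with PD03 against control 4 rose and 4 fell, beside 4.9% and 4.07%. Their median log2 fold change was -0.03, 0.32 and 0.11, against medians over all genes of -0.00602, 0.0109 and -0.00395. The symbols below the filter were Slc34a1, Slc34a2, Abcc6, Adora1, Ibsp, Dmp1, Mepe and Cyp24a1, with at most 7 counts in any library, and Slc34a3, Entpd2, Dspp, Ahsg and Kl are not listed.

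Among the phosphate transporters, 1 of the 3 tested rose with thrombin (2.62% of all tested genes did) and fell with PD03 against thrombin (6.31% of all). This was Slc20a1, which imports phosphate with sodium and went from 1869 to 2147 counts in the Control libraries to 3027 to 3814 in the Thrombin libraries and 1870 to 1959 in the PD03 libraries. Its log2 fold change was 0.74 with thrombin (adjusted p = 2.14e-14) and -0.83 with PD03 against thrombin (adjusted p = 3.24e-16). Slc20a2, of the same family, was not called, at 0.20 and -0.46.

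Of the 13 symbols counted for pyrophosphate, ATP and adenosine, 2 fell with thrombin, beside 5.44% of all tested genes, and 3 rose with PD03 against thrombin, beside 9.61% of all. Enpp3, an ectonucleotidase related to Enpp1, had 4652 to 5538 counts in the Control libraries, 1850 to 1879 in the Thrombin libraries and 3004 to 3906 in the PD03 libraries. It fell with thrombin (log2 fold change -1.48, adjusted p = 1.46e-28), where Enpp1 rose, and it rose with PD03 against thrombin (0.88, adjusted p = 4.5e-21), where Enpp1 fell. Enpp3 averaged 111, 39.3 and 67.7 FPKM in the Control, Thrombin and PD03 groups, and Enpp1 averaged 4.82, 9.98 and 3.83 FPKM. The ratio of Alpl to Enpp1 above leaves out Enpp3 and is not a measure of pyrophosphate. Entpd1, which degrades ATP and ADP like Entpd3, had 45 to 49, 25 to 30 and 104 to 106 counts in the Control, Thrombin and PD03 libraries. Its log2 fold change was -0.82 with thrombin (adjusted p = 0.00565) and 1.96 with PD03 against thrombin (adjusted p = 1.22e-10). The adenosine receptor Adora2a rose with PD03 against thrombin (1.90, adjusted p = 1.11e-13) and was at -0.55, not called, with thrombin against control. The channel gene Panx3 was low, with 7, 4 and 14 counts in the Control libraries, 4, 2 and 0 in the Thrombin libraries and 42, 42 and 39 in the PD03 libraries. No test is given for Panx3, which entered the fit only through its PD03 libraries.

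Of the 5 genes counted for mineral-binding proteins and matrix vesicles, 1 fell with thrombin, beside 5.44% of all tested genes. With PD03 against thrombin 2 rose and 1 fell, beside 9.61% and 6.31% of all. Ibsp (bone sialoprotein) had at most 1 count and Dmp1 at most 4 counts in any library. Omd, a small proteoglycan of bone, had 93 to 174 counts in the Control libraries, 37 to 42 in the Thrombin libraries and 138 to 170 in the PD03 libraries, with log2 fold changes of -1.75 (adjusted p = 1.65e-10) and 1.98 (adjusted p = 1.34e-12). Smpd3, a sphingomyelinase needed for normal mineralisation, had 18, 3 and 5 counts, then 3, 1 and 0, then 29, 28 and 23, in the Control, Thrombin and PD03 libraries. Smpd3 also entered the fit only through its PD03 libraries, so no test is given, and Control replicate 1 stood apart from the other Control libraries. Sparc (osteonectin), with 85743 to 154508 counts, rose with PD03 against thrombin (0.69, adjusted p = 6.98e-23), and Anxa2, a membrane-binding protein found in matrix vesicles, fell (-0.60, adjusted p = 3.98e-19).

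Of the 9 tested modifying enzymes and phosphate hormones, 2 rose and 4 fell with thrombin, beside 2.62% and 5.44% of all tested genes. With PD03 against thrombin 3 rose and 1 fell, beside 9.61% and 6.31% of all. Fgf23, a hormone that lowers blood phosphate, had 777, 536 and 582 counts in the Control libraries, 76, 67 and 74 in the Thrombin libraries and 93, 85 and 112 in the PD03 libraries. It fell 9.05-fold with thrombin (-3.18 ± 0.119 standard error on the log2 scale, adjusted p = 1.12e-24) and stayed 6.56-fold lower in PD03 against control (-2.71, adjusted p = 6.22e-23), with 0.46 between PD03 and thrombin (adjusted p = 0.0106, not called). The 5 osteocyte markers (Dmp1, Mepe, Sost, Phex and Fgf23) summed to 34.6 to 43.1, 3.89 to 5.89 and 5.61 to 7.71 CPM across Control, Thrombin and PD03 libraries, mostly from Fgf23, with Sost at 0 in all but PD03 replicate 3. Fam20c, a kinase of secreted proteins including osteopontin, fell with thrombin (-0.90, adjusted p = 5.6e-19) and in PD03 against control (-1.04, adjusted p = 6.73e-21), and was at -0.14 between PD03 and thrombin. Stc2 (stanniocalcin) showed values of -0.94 (adjusted p = 1.21e-17), -1.05 (adjusted p = 4.14e-19) and -0.11 in the same comparisons. Fam20a, a partner of Fam20c, fell with thrombin (-1.63, adjusted p = 2.55e-09) and rose with PD03 against thrombin (1.64, adjusted p = 7.28e-10).

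Galnt3, a glycosyltransferase that protects Fgf23 from cleavage, had 6 to 12 counts in the Control libraries, 21 to 37 in the Thrombin libraries and 2 to 12 in the PD03 libraries. It rose with thrombin (1.55, adjusted p = 0.00288) and fell with PD03 against thrombin (-1.74, adjusted p = 0.000527). Vdr, the vitamin D receptor, rose with thrombin (0.87, adjusted p = 6.17e-05) and in PD03 against control (1.19, adjusted p = 7.35e-08), and was at 0.32 between PD03 and thrombin. Stc1 rose with PD03 against thrombin (1.57, adjusted p = 7.16e-22), as did Vkorc1, which recycles the vitamin K needed to modify Mgp and Bglap (0.70, adjusted p = 4.98e-13). The other 15 rows of the list had log2 fold changes between -0.37 and 0.32 with thrombin, between -0.49 and 0.50 in PD03 against thrombin and between -0.26 and 0.61 in PD03 against control.

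**Figure D5:**
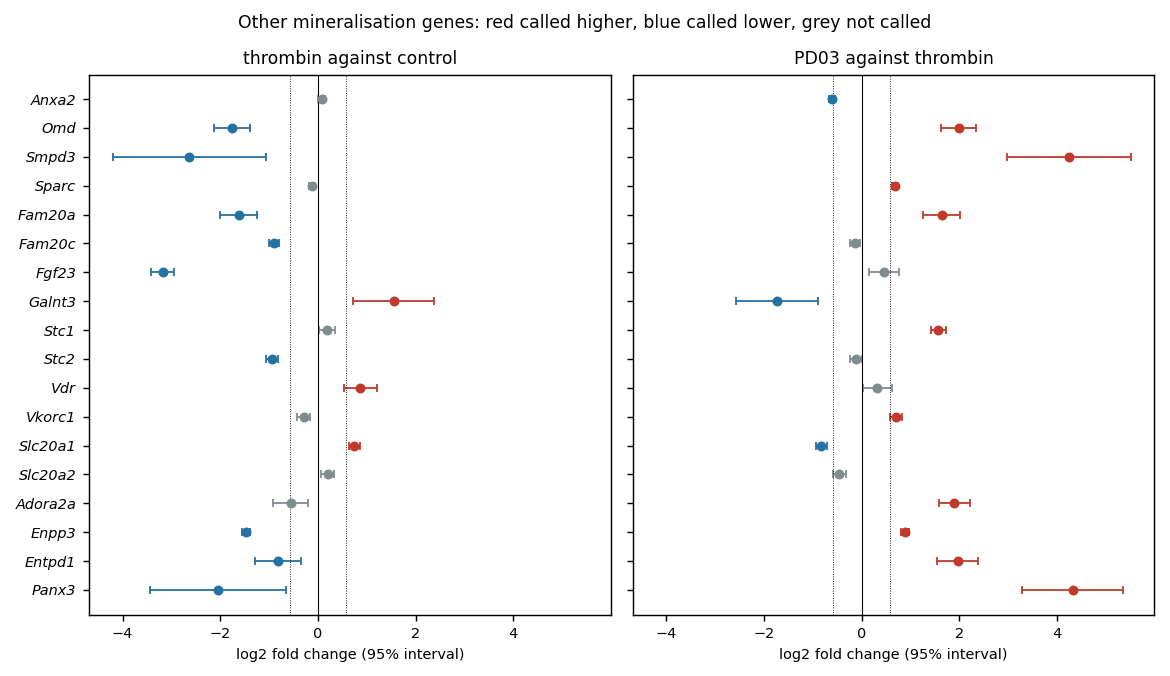
Fitted log2 fold change with its 95% interval for 18 named genes of the wider list in thrombin against control (left) and PD03 against thrombin (right), with the fold threshold of 0.58 as dotted lines. Red points were called higher, blue points lower and grey points were not called. Fgf23, Fam20c, Stc2 and Vdr are called on the left alone. Smpd3 and Panx3 have the widest intervals. They passed the count filter only through PD03, so their points, intervals and colours are not to be read as tests.

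Among genes averaging 10 CPM or more, the log2 CPM pattern closest to that of Alpl over the 9 libraries belonged to Ackr3, Lbp and Mfap5, with Pearson correlations of 0.980, 0.973 and 0.970 among 8967 genes. Ackr3 stood at 206, 123 and 268 CPM in the Control, Thrombin and PD03 groups. The pattern closest to Spp1 belonged to Wnt5a, Galnt10 and Fndc4, with correlations of 0.998, 0.997 and 0.996 among 8966 genes. Wnt5a stood at 92.8, 227 and 78.1 CPM in the same order. The 3 groups stand apart in these genes, so the correlations mostly follow the group means, and they are given as a description.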

How the data were processed

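The authors made libraries with a NEBNext Ultra kit and deposited 1 table that gives each gene a raw count and an FPKM value per library. The paper names fastp, HISAT2, featureCounts and the genome Rnor_6.0, whereas the submitters' processing notes name HISAT2, HTSeq 0.13.5 and mRatBN7.2. The sources used here give neither the annotation release nor the strand setting. From the deposited counts, genes were filtered with filterByExpr in edgeR 4.0.16 (minimum count 10), which kept 13256 of 19085 genes (2048 of all without a symbol). Libraries were scaled by TMM and fitted in 1 quasi-likelihood model with 3 group means, and p-values were adjusted over all tested genes by the Benjamini-Hochberg method. Standard errors came from the F statistic. The deposited FPKM values, scaled by the authors to gene length and library, served for levels between genes and as an alternative. On simulated data with 200 changed genes among 13256, edgeR recovered 93.5% for thrombin against control, 94.5% for PD03 against thrombin and 93% for PD03 against control. Replicates varied beyond counting noise (chi-square over degrees of freedom 1.82 to 3.99), and the biological coefficient of variation was 4.28%. In each group the pair of replicates 2 and 3 had the lowest chi-square value (1.82 in Control, 2.13 in Thrombin and 1.92 in PD03). Floors of 3 counts over a group were 0.0574 to 0.0599 CPM, and count intervals (95%) cover counting error only.

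The 10 genes, the wider list and the markers were chosen with earlier results of these data known. All 10 genes are named. From the wider list, Ibsp, Dmp1, Sparc, Slc20a1 and Slc20a2 are named, and any other gene called either with thrombin over control or with PD03 over thrombin whose higher group averaged 1 CPM or more. For Alpl and Spp1 the 3 genes with the highest correlation are named. Alternatives were library totals, median-of-ratios factors, other count filters, DESeq2 1.42.0, limma voom 3.58.1, other fold thresholds, FPKM with 1 or 0.1 added, a replicate block and each library left out. R 4.3.3, Python 3.11.15 and matplotlib 3.10.9 were used. Motifs were searched in RefSeq promoter windows of another build (GRCr8), so their coordinates are not those of the counts.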

Additional observations from a re-analysis of the deposited data

How the results depend on the processing

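The calls of Enpp1, Spp1 and Mgp kept their direction and their side of the threshold under every alternative run for the comparisons in which they were called. The counts here include Entpd3, Phex, Panx3 and Smpd3, which passed the filter only through PD03. They are not to be read as tests of those genes. With no fold threshold, 6 of the 10 genes were called in thrombin against control and 7 in PD03 against control, then, in the order thrombin against control, PD03 against thrombin, PD03 against control, 22, 27 and 22 of the wider list and 3808, 6608 and 5289 of all genes. With a threshold of 1 on the log2 scale, 7 and 8 of the wider list were called in thrombin against control and PD03 against thrombin, and 505, 935 and 519 of all genes. With FPKM plus 1, 543, 1254 and 676 of all genes and 1 of the 10 in PD03 against control were called. This addition exceeds the level of Alpl in most libraries and of Entpd3 in all. Alpl was then not called with thrombin (-0.56) or in PD03 against control (0.39). Entpd3, for which no test is given, stood at 0.43 in PD03 against thrombin and 0.42 in PD03 against control. With a mean count of at least 50, which removes Alpl, Entpd3 and Phex, 3 and 1 of the 10 were called in PD03 against thrombin and PD03 against control. Leaving out libraries changed the sign of small values: Phex ranged between -1.15 and 0.212 with thrombin and between -0.0621 and 1.30 in PD03 against thrombin; Phospho1 between -0.095 and 0.0668, -0.0679 and 0.0602, and -0.0963 and 0.0579 in the 3 comparisons; Ankh between -0.0135 and 0.0973 in PD03 against thrombin. In that comparison Phospho1 also changed sign with library totals (-0.0967), median-of-ratios factors (-0.0047), no filter (-0.0156), DESeq2 (-0.0052), FPKM plus 1 (-0.068) and FPKM plus 0.1 (-0.0948), and Ankh with library totals (-0.0472), FPKM plus 1 (-0.0427) and FPKM plus 0.1 (-0.0462). The cause was not tested. With the replicate number as a block, 3, 5 and 3 of the 10 genes and 1067, 2103 and 1187 of all genes were called. Deviations of same-numbered libraries correlated between -0.0504 and 0.0482, which gave no sign of pairing by number. With 3 libraries a group this cannot exclude a pairing or a shared batch. Depth limits Bglap and Phex throughout, and Entpd3 between the Thrombin and Control groups.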
